A study of Mus musculus with 2 samples.

Results

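Mucl1 (mucin-like 1, ENSMUSG00000060311) is 1 of the 32285 genes in the deposited count tables of a single-cell RNA-sequencing study of neonatal mouse skin. It was chosen by its measured values, because its level differed more between the 2 libraries in macrophages than that of any other gene measured there. Its levels below are therefore a description and support no test. The study compared 2 groups of wild-type C57BL/6 mice, both sampled at postnatal day 15 and both treated with antibody on alternate days, starting on day 4 and ending on day 14. One group received an isotype control antibody, and the other received anti-Gr-1, given to deplete monocytes. Skin was minced and digested with collagenase, live CD45+ cells were sorted, and the cells of 4 to 7 mice were pooled into 1 library for each group. No comparison between the groups has a replicate, so no p-value is given, and the 95% intervals below cover counting error only.

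Mucins are glycoproteins with stretches that carry many O-linked sugar chains, and epithelia and glands secrete them or hold them at the cell surface. Mucl1 is named for its likeness to them. Macrophages of the dermis take up debris, microbes and dying cells, while type 2 dendritic cells sample antigen and carry it to lymph nodes. Both are mononuclear phagocytes, and monocytes from the blood can give rise to macrophages in the skin. Anti-Gr-1 binds Ly6G and Ly6C, surface proteins of neutrophils and classical monocytes.

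In mouse build mm10 (GRCm38), GENCODE places Mucl1 on chr15:103751919-103755469, on the minus strand, as a protein-coding gene with 2 transcripts. RefSeq, on the same build, lists it as a transcribed pseudogene with the synonyms Spt-2 and Spt2. Its transcript Mucl1-202 has 4 exons, 758 bases and a coding part of 525 bases. A close relative, Mucl2 (ENSMUSG00000036925), lies 140385 bases away on the same strand, at chr15:103895855-103899312. The start of the coding part is shown for both because it shows how alike the 2 messages are there. It is not the end that a 3′ library reads. The 97 bases span the coding part of exon 1 (chr15:103755382-103755439) and exon 2 (chr15:103754624-103754662) of Mucl1, and of exon 1 (chr15:103899184-103899241) and exon 2 (chr15:103898408-103898446) of Mucl2. They read 5′ to 3′ on the minus strand, with capitals at the bases that differ.
Mucl1: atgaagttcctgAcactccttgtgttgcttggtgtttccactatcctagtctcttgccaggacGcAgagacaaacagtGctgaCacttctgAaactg
Mucl2: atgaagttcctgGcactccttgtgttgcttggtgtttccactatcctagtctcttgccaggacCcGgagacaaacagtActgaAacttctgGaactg
The stretches agree at 91 of 97 positions and differ by 6 substitutions, A13G, G64C, A66G, G79A, C84A and A92G, counted from the A of the start codon with the Mucl1 base first. Over the whole transcripts, 85.4% of 589 aligned bases were identical and the longest shared run was 50 bases. In the last exon, the end that a 3′ library reads, 84.5% of 194 aligned bases were identical. How reads that match both genes were counted is not given in the sources used here. Mucl2 had 6 unique molecular identifiers (UMIs, each standing for 1 captured RNA molecule) in the kept isotype control cells and 0 in the kept anti-Gr-1 cells, and none in any cell rich in Mucl1.

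The libraries held 21311 isotype control and 9110 anti-Gr-1 barcodes, with medians of 4460 and 7463 UMIs. After filters on genes, UMIs and mitochondrial share and removal of called doublets, 16487 and 7574 cells were kept, with medians of 5073 and 7894 UMIs. The libraries shared 61 barcodes, of which 1 had a Mucl1 UMI and none was rich in it. Ptprc, which encodes CD45, was found in 35 of 37 and in 19 of 19 cells rich in Mucl1.

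Mucl1 RNA sat in very few cells. In the isotype control library 247 of 16487 kept cells had a Mucl1 UMI (1.50%, exact Clopper-Pearson interval 1.32 to 1.70), and in the anti-Gr-1 library 114 of 7574 did (1.51%, 1.24 to 1.81). The first interval lay within the second. Cells with at least 5 Mucl1 UMIs are called rich here, and cells with 0 are called free. Rich cells numbered 37 in the isotype control library (0.224%, 0.158 to 0.309) and 19 in the anti-Gr-1 library (0.251%, 0.151 to 0.391). These few cells held 88.8% of the 2276 Mucl1 UMIs of the isotype control cells. In the anti-Gr-1 library they held 96.6% of 3356.

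The counts of Mucl1 per cell formed a large class at 1 UMI, with a few cells spread far above it. There were 174 isotype control cells with 1 UMI, 29 with 2, 7 with 3 or 4 and 8 with 5 to 9. Another 5 held 10 to 19, 18 held 20 to 99 and 6 held 100 or more. In the anti-Gr-1 library the same classes held 81, 11, 3, 1, 1, 5 and 12 cells. The place of the threshold matters in the isotype control macrophages, where 8 cells held at least 5 UMIs and 5 held at least 10. Of the UMIs, 50% were held by the 9 richest isotype control cells and by the 5 richest anti-Gr-1 cells. The 10 richest cells held 54.9% of the isotype control UMIs, against 80.8% after anti-Gr-1. A change in 1 or 2 cells can thus move the level of a whole cell type.

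**Figure D1:**
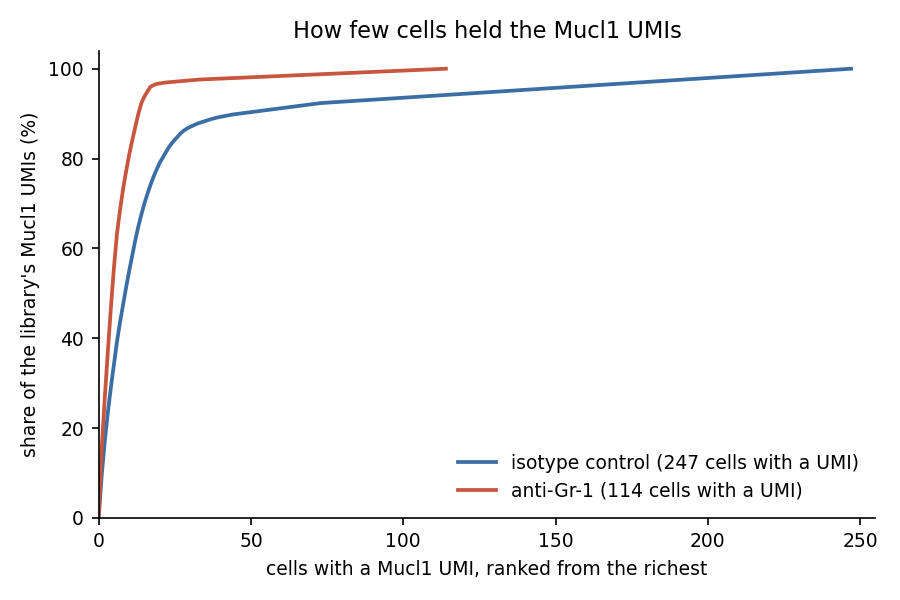
Cumulative share of each library's Mucl1 UMIs (y axis, percent) held by its cells with a Mucl1 UMI, ranked from the richest (x axis, number of cells). Each line is 1 library, and the anti-Gr-1 line climbs faster, reaching 80.8% at 10 cells against 54.9% for the isotype control.

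Cells were sorted into types by gates of marker genes. A cell joined a type when it had UMIs of at least 50% of that type's markers and no other type had a larger share. In a tie the macrophage gate came first. The macrophage gate used C1qa, C1qb, C1qc, Adgre1, Fcgr1, Mertk, Ms4a7 and Csf1r, and the type 2 dendritic gate used Cd209a, Mgl2, Clec10a, Flt3, Napsa and Zbtb46. C1qa, a subunit of the complement protein C1q, was found in 93.2% and 98.8% of macrophage-gated cells, and in 7.16% and 3.95% of type 2 dendritic-gated cells. C1qa is itself a marker of the macrophage gate. Cd209a, a marker of the other gate, was found in 26.3% and 14.4% of macrophage-gated cells free of Mucl1 and in 92.6% and 90.7% of free type 2 dendritic-gated cells. Mgl2, also a marker of that gate, was common in free cells of both, at 83.2% and 94.2% against 96.4% and 97.0%. A cell near a gate's limit can fall on either side of it: just the 4 markers needed were found in 171 of 983 macrophage-gated cells after isotype control and in 17 of 333 after anti-Gr-1. Rich isotype control macrophages with 98, 7 and 5 Mucl1 UMIs were ties, at 4 of 8 macrophage and 3 of 6 type 2 dendritic markers. The tie rule alone placed them in the macrophage gate.

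Mucl1 was found in macrophage-gated cells of both libraries, at a level measured as counts per 1000000 UMIs (CPM) summed over the gate. The 983 isotype control cells of that gate held 452 UMIs, or 65.3 CPM (exact Poisson interval 59.4 to 71.6). In the anti-Gr-1 library 333 cells held 2343 UMIs, or 652 CPM (626 to 679). The level was 9.98 times higher in the anti-Gr-1 library (exact conditional interval 9.02 to 11.1). Of the isotype control UMIs 47.8% lay in 1 cell with 216, and without the richest cell of each library the levels were 34.2 CPM (30.0 to 38.8) and 511 CPM (488 to 535). The ratio over all cells is the one that chose the gene. It ranked first of 2919 genes measured in that gate, of which 2, or 0.0685%, were at least 2-fold higher in the anti-Gr-1 library. On the log2 scale with 5 CPM added, Mucl1 stood at 3.22, the next gene, AY036118, at 1.14, and the median gene at -0.05.

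In the anti-Gr-1 library rich cells made up a larger share of the macrophage gate, and each held more UMIs on average. Rich cells made up 8 of 983 isotype control macrophages (0.814%, 0.352 to 1.60) and 9 of 333 anti-Gr-1 macrophages (2.70%, 1.24 to 5.07), a ratio of shares of 3.32 (1.14 to 9.89). The mean count of a rich macrophage was 258 UMIs after anti-Gr-1 against 53.5 after isotype control, 4.83 times more. That compares raw counts, and rich macrophages were deeper after anti-Gr-1, at a median of 11215 UMIs against 7391. As a share of all UMIs in the cell, the median was 2.36% against 0.551%. In macrophages that were not rich, 24 isotype control UMIs gave 3.51 CPM (2.25 to 5.22) and 17 anti-Gr-1 UMIs gave 4.86 CPM (2.83 to 7.79). The ratio of those 2 levels was 1.39, with an interval from 0.699 to 2.69 that includes no difference. The difference between the libraries was thus held by 17 cells, each library's from a single pool of mice.

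Type 2 dendritic-gated cells, by contrast, had like levels in both libraries when taken as a whole gate. The isotype control gate held 1279 UMIs in 2612 cells, or 46.0 CPM (43.5 to 48.6), and the anti-Gr-1 gate held 868 UMIs in 1241 cells, or 43.5 CPM (40.7 to 46.5). The ratio was 0.947 (0.868 to 1.03). Rich cells made up 23 of the isotype control cells (0.881%, 0.559 to 1.32) and 9 of the anti-Gr-1 cells (0.725%, 0.332 to 1.37). The ratio of the macrophage gate and that of this gate were not compared by a test, since each library is 1 sample.

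Outside these gates Mucl1 was low, apart from cells that met no gate. The ungated cells held 421 isotype control UMIs in 3084 cells (48.4 CPM, 43.9 to 53.3) and 108 anti-Gr-1 UMIs in 804 cells (22.1 CPM, 18.1 to 26.7), with 5 and 1 rich cells. Cells that met gates of more than 1 lineage held 36 UMIs with 1 rich cell, and 6 UMIs with none. With all cells, the order of levels after isotype control was macrophages, then ungated and type 2 dendritic cells, whose intervals overlapped. Without the richest cell of each gate these stood at 34.2, 33.8 and 39.8 CPM, so the first place of the macrophages there rested on 1 cell. After anti-Gr-1 the order was macrophages, type 2 dendritic cells and ungated cells, with no overlap, at 511, 34.6 and 1.64 CPM without the richest cell of each. Below those 3, among gates of at least 50 cells, each type's interval overlapped that of the next one in the order.

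Monocytes and other dendritic cells held Mucl1 only as scattered UMIs. Non-classical monocytes had 6 UMIs in 131 isotype control cells (6.93 CPM, 2.54 to 15.1), with at most 3 in a cell, and 0 in 29 anti-Gr-1 cells. Classical monocytes had 1 UMI in 181 isotype control cells and 0 in 16 anti-Gr-1 cells, which by a limit of 3 cells allows up to 18.8% of those cells to have a UMI. Langerhans cells, the dendritic-like cells of the epidermis, had 3.31 CPM (1.33 to 6.81) and 0.705 CPM (0.0178 to 3.93). Type 1 dendritic cells had 2.14 CPM (1.02 to 3.93) and 0.519 CPM (0.141 to 1.33), and migratory dendritic cells 2.56 CPM (0.697 to 6.55) and 2.52 CPM (0.519 to 7.35). Neutrophils had 1 UMI in 116 isotype control cells and 0 in 9 anti-Gr-1 cells, too few to show a low level. No B-gated, NK-gated or basophil-gated cell had a Mucl1 UMI, in gates of 17 to 35 cells.

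**Figure D2:**
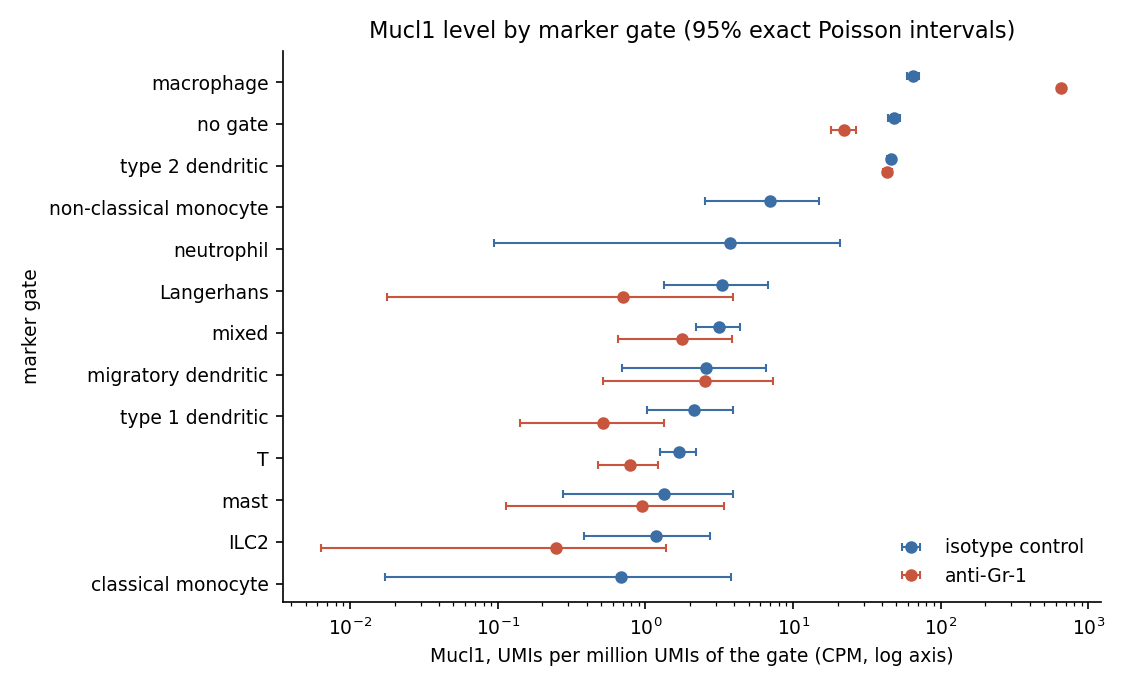
Mucl1 level by marker gate in CPM of the gate (log axis), with isotype control in blue and anti-Gr-1 in red and bars for the exact Poisson 95% interval; gates under 50 cells or with 0 UMIs are not drawn. The macrophage gate reaches 652 CPM in the anti-Gr-1 library against 65.3 in the isotype control, and the type 2 dendritic points lie side by side at 43.5 and 46.0.

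T cells, none of which was rich, serve as the comparison for scattered UMIs, such as free RNA in the droplets can give. In 5924 isotype control T cells 46 had a UMI (0.777%, 0.569 to 1.03), for 1.68 CPM (1.25 to 2.21). In 3498 anti-Gr-1 T cells 19 did (0.543%, 0.327 to 0.847), for 0.785 CPM (0.479 to 1.21). No T cell had more than 2. All gates without a rich cell together gave 1.82 CPM (1.46 to 2.25) in 8607 isotype control cells and 0.723 CPM (0.491 to 1.03) in 5006 anti-Gr-1 cells.

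The single Mucl1 UMIs of T cells were set beside UMIs of other phagocyte genes in the same cells. The T-cell level of Mucl1 was 7.62% of its level over all kept isotype control cells, beside 5.48% for C1qa, 7.40% for Cd74, the class II invariant chain, and 11.0% for the lysozyme gene Lyz2. In the anti-Gr-1 library it was 1.75%, beside 1.86%, 3.23% and 5.34%. The isotype control library thus had a larger share of each of these 4 RNAs in its T cells. T-cell levels split by subset (epidermal γδ, γδ17, regulatory and other) lay from 1.08 to 2.33 CPM after isotype control, against 0.709 to 0.856 CPM after anti-Gr-1, and no subset held a rich cell.

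Cells of different depth were compared after each was thinned to 1000 UMIs. The share of T cells with a Mucl1 UMI was then 0.174% in the isotype control, with 184 shallower cells left out, and 0.0573% in the anti-Gr-1 library, with 5 left out. Macrophages stood at 1.04% (18 left out) and 3.00% (0 left out), against 2.85% and 6.31% before thinning. Type 2 dendritic cells stood at 1.28% (25 left out) and 0.886% (0 left out), against 3.41% and 3.95%. With rich cells left out, thinned macrophages stood at 0.313% and 0.309%, near the value of a few single UMIs, and no difference is read from them.

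Each rich macrophage of the anti-Gr-1 library held much Mucl1. The 9 cells had 517, 377, 344, 328, 299, 256, 132, 37 and 36 UMIs, which was 0.728% to 3.63% of all UMIs in the cell. The 8 rich macrophages of the isotype control library had 216, 98, 41, 36, 18, 7, 7 and 5. The ranges overlapped, yet 6 of the 9 anti-Gr-1 cells exceeded the richest isotype control cell. All 9 anti-Gr-1 cells had UMIs of C1qa, C1qb and C1qc. Of the isotype control cells, the poorest, with 5 Mucl1 UMIs, and 1 of those with 7 had a single C1q UMI each, beside 33 and 8 UMIs of Mgl2, a lectin of type 2 dendritic cells and dermal macrophages.

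The rich type 2 dendritic-gated cells had overlapping counts in the 2 libraries, with a higher median count after anti-Gr-1. They were also deeper there, at a median of 16444 UMIs against 11429 after isotype control. As a share of all UMIs in the cell, the medians were close, at 0.496% after anti-Gr-1 and 0.436% after isotype control. The 9 anti-Gr-1 cells had 178, 157, 124, 107, 97, 82, 50, 12 and 9 UMIs, with a median of 97. The 23 isotype control cells ran from 5 to 172 UMIs with a median of 34, and 3 of them held over 100. Most lacked C1q: 13 of 23 and 7 of 9 had no UMI of any C1q gene. The 5 ungated rich cells of the isotype control library had 128, 115, 77, 49 and 26 UMIs, and the anti-Gr-1 one had 100. All 5 and the single one had Mgl2 and Cd74 UMIs, but Cd74 was also found in 89.7% and 79.8% of T cells. In 1 shallow ungated cell with 1378 UMIs in all, Mucl1 made up 8.35%, the highest share in either library.

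**Figure D3:**
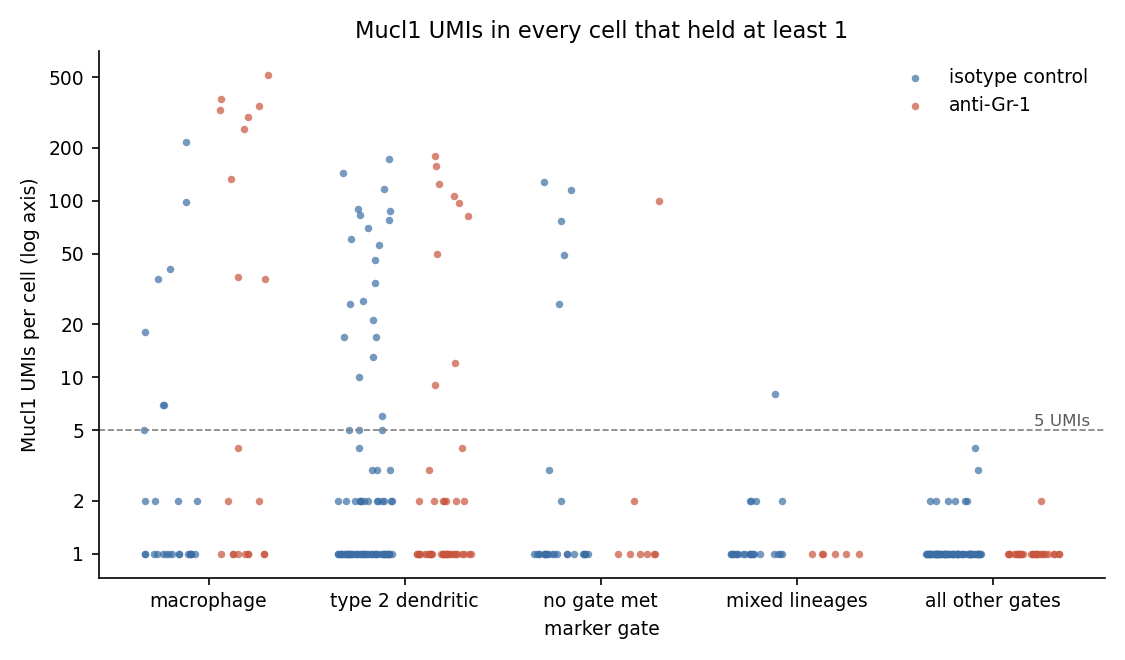
Mucl1 UMIs per cell (log axis) for cells with at least 1 UMI, by marker gate and library. In the macrophage gate 7 anti-Gr-1 cells lie above 100 UMIs against 1 isotype control cell, while in the type 2 dendritic gate the libraries overlap along the whole range.

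The rich cells held UMIs of several phagocyte genes. Lyz2 and Cd74 were found in all 56 kept rich cells, and Mgl2 in 37 of 37 and 18 of 19. These shares were near those of free cells. In the free cells of each gate and library, Lyz2 was found in at least 96.7% and Cd74 in at least 95.5%. Lyve1, the hyaluronan receptor of perivascular resident macrophages, was found in none of the 56. Among free macrophages it was found in 14.0% after isotype control and 20.8% after anti-Gr-1, and among free type 2 dendritic-gated cells in 1.31% and 1.17%. Mrc1, which encodes the mannose receptor and is listed here among resident macrophage genes, was found in 35 of 37 and 17 of 19 rich cells. It was also found in 93.7% and 98.4% of free macrophages, and in 81.3% and 84.4% of free type 2 dendritic-gated cells. Cd163, a haemoglobin scavenger receptor gene of the same list, was found in 6 of 8 and 7 of 9 rich macrophages and in 23 of 23 and 8 of 9 rich type 2 dendritic-gated cells. In that second gate free cells held it too, at 311 CPM against 458 CPM in rich cells after isotype control. After anti-Gr-1 these were 338 and 478 CPM. Flt3, the growth factor receptor of dendritic cells, was found in 4 of the 23 rich type 2 dendritic-gated isotype control cells and in none of the 9 anti-Gr-1 ones, against 58.9% and 61.2% of free cells of the gate. Flt3 is a marker of that gate, and a cell could enter it without Flt3. Cd3e, a T-cell gene, was found in 7 of 37 and 4 of 19 rich cells, and Krt14, a keratinocyte gene, in 2 and 0. Free macrophages had Cd3e in 20.5% and 11.5% of cells, and free type 2 dendritic-gated cells in 20.4% and 12.3%.

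**Figure D4:**
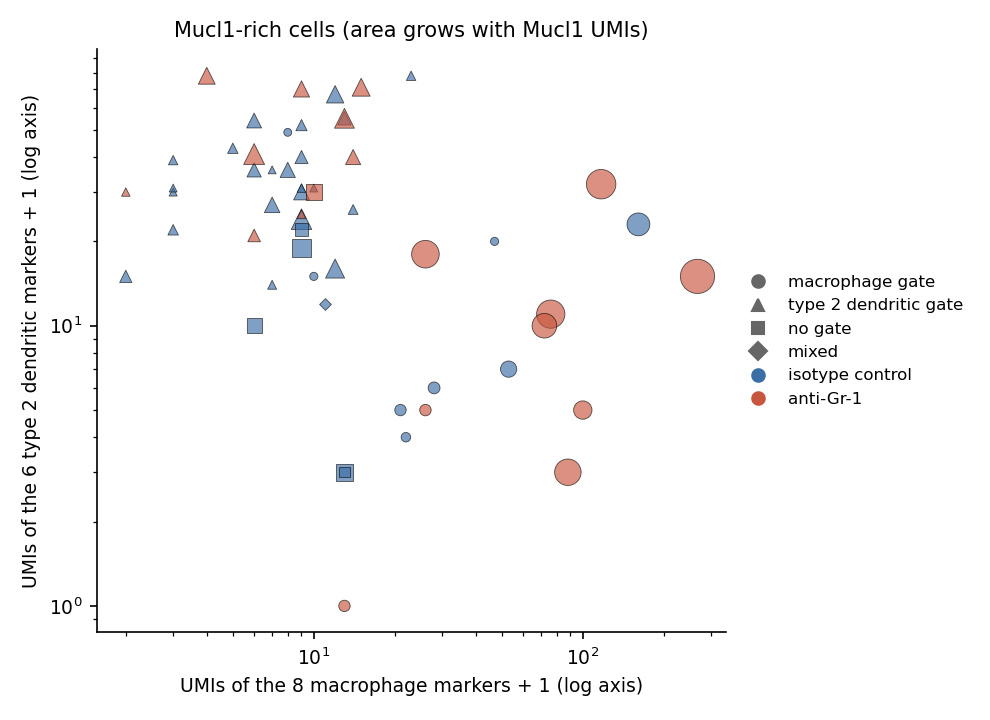
The 56 kept Mucl1-rich cells by their summed UMIs of the 8 macrophage markers (x axis) and of the 6 type 2 dendritic markers (y axis), each with 1 added on a log axis, where the shape gives the gate, the colour the library and the area grows with Mucl1 UMIs. The anti-Gr-1 cell with 517 Mucl1 UMIs lies farthest right, with 266 macrophage and 14 type 2 dendritic marker UMIs, and the 2 isotype control macrophages with a single C1q UMI, at 9 and 7 macrophage marker UMIs, lie among the type 2 dendritic-gated cells.

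Splitting the gates by these genes, with the rich cells already known, shows where Mucl1 was. In type 2 dendritic-gated cells without a Flt3 UMI, 19 of 1094 isotype control cells (1.74%, 1.05 to 2.70) and 9 of 495 anti-Gr-1 cells (1.82%, 0.835 to 3.42) were rich. With Flt3, 4 of 1518 (0.264%, 0.0718 to 0.673) and 0 of 746 were, the latter allowing up to 0.402%. The Mucl1 level without Flt3 was 93.7 CPM after isotype control and 108 CPM after anti-Gr-1, a ratio of 1.16 (1.06 to 1.27). With Flt3 it was 15.5 and 1.73 CPM, a ratio of 0.111 (0.0678 to 0.174), where only the isotype control held rich cells. Median depths on either side were close, at 10091.5 without and 10995.5 with Flt3 after isotype control, and at 15088 and 15958 UMIs after anti-Gr-1. In macrophages with a UMI of Lyve1 or of Folr2, a folate receptor of resident macrophages, 1 of 400 isotype control cells and 0 of 174 anti-Gr-1 cells were rich. That single cell had 216 Mucl1 and 6 Folr2 UMIs.

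The macrophage ratio differed between the sides of that split. Without Lyve1 and Folr2 the Mucl1 level was 55.9 CPM (48.8 to 63.6) in 583 isotype control cells and 1320 CPM (1267 to 1375) in 159 anti-Gr-1 cells, which gave a ratio of 23.6 (20.6 to 27.2). With either gene it was 78.7 CPM (68.8 to 89.7) and 4.93 CPM (2.25 to 9.36), a ratio of 0.0626 (0.0283 to 0.121) that rests on the 1 isotype control cell named above. Split instead by Retnla, which encodes the secreted protein RELMα, the ratio was 7.13 (6.34 to 8.03) with and 24.8 (19.7 to 31.6) without it. Retnla itself varied widely: 4 of the 8 rich isotype control macrophages had 408, 333, 49 and 1 UMIs, and 3 of the 9 anti-Gr-1 ones had 153, 1 and 1.

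Genes were then compared between rich and free cells within each gate and library, as CPM without Mucl1's own UMIs, with 5 CPM added on the log2 scale. These are 8 against 955 isotype control macrophages, 9 against 312 anti-Gr-1 macrophages, 23 against 2523 isotype control type 2 dendritic cells and 9 against 1192 anti-Gr-1 ones. Median depths in the macrophage gate were 7391 and 6435 UMIs for rich and free isotype control cells, and 11215 and 9863.5 for anti-Gr-1 cells. Cells of 1 library are not replicates, so the values describe these cells and have no p. Among anti-Gr-1 macrophages, 274 of 3295 genes (8.32%) were at least 2-fold higher in rich cells and 451 (13.7%) at least 2-fold lower. Among isotype control macrophages these were 334 (9.49%) and 366 (10.4%) of 3518 genes. When rich meant at least 10 UMIs, the isotype control counts were 616 and 639 of 3841 genes, and with 20 CPM added in place of 5, 177 isotype control and 150 anti-Gr-1 genes were higher. The counts in the lists below are read against the shares at 5 UMIs and 5 CPM. The lists were chosen with earlier results of these data known.

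Resident macrophage genes were mostly lower in rich macrophages. Of 22 listed, 19 were measured in the anti-Gr-1 gate, with 12 at least 2-fold lower and 2 higher, and a median log2 of -2.71 (-2.62 with genes at 0 set to their limit), against -0.05 over all genes. Of the isotype control genes, 14 of 17 were lower and none higher, with a median of -1.61 (-1.59), against 0.09. The chemokine gene Ccl8 had 10.4 CPM in rich and 1891 CPM in free anti-Gr-1 macrophages, from 1 UMI in all rich cells, a ratio of 0.00551 (0.00014 to 0.0307). Its isotype control levels were 140.8 and 2646 CPM, a ratio of 0.0532 (0.0266 to 0.0953). Rich anti-Gr-1 macrophages had no UMI of Folr2, of the scavenger receptor gene Stab1 or of the endothelin receptor gene Ednrb, which were at least 14.1-fold, 12.8-fold and 14.5-fold lower than in free cells, taking 3 counts over the set as the limit. Isotype control rich cells had 6, 1 and 1 UMIs of these genes, with ratios of 0.244 (0.0895 to 0.533), 0.0484 (0.00122 to 0.27) and 0.0355 (0.0009 to 0.198). Lyve1, at 0 UMIs in both sets, was at least 10.3-fold lower in the anti-Gr-1 and at least 4.14-fold lower in the isotype control library.

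Of the 10 listed antigen presentation genes of MHC class II, all 7 that were measured in anti-Gr-1 macrophages were at least 2-fold higher in rich cells, with a median log2 of 1.37. After isotype control 2 of 8 were, H2-DMb2 and Ciita, with a median of 0.87. Whether the libraries differ in this was not tested. H2-Eb1, a class II beta chain, had 7484 CPM in rich and 2573 CPM in free anti-Gr-1 macrophages, a ratio of 2.91 (2.69 to 3.14), with UMIs in all 9 rich cells. Isotype control levels were 5672 and 2998 CPM, a ratio of 1.89 (1.72 to 2.08). Ciita, the class II transactivator, had ratios of 3.63 (2.26 to 5.60) and 2.20 (1.20 to 3.73). In the type 2 dendritic gate, where free cells had these genes at high levels already, 1 of 8 in the anti-Gr-1 and none of 8 in the isotype control library was 2-fold higher.

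Among genes of recruited monocytes, the chemokine receptor gene Ccr2 had UMIs in every rich macrophage of both libraries. It was found in all 9 rich anti-Gr-1 macrophages against 34.6% of free ones, with 1866 and 555 CPM, and in all 8 isotype control ones against 54.5%, with 1396 and 766 CPM. Its ratios were 3.36 (2.87 to 3.92) and 1.82 (1.49 to 2.20). Over the list of 13 monocyte genes the counts were mixed, with 1 of 5 higher and 1 lower in the anti-Gr-1 gate and none of 7 higher and 3 lower in the isotype control gate. Fn1, encoding fibronectin, had 166.8 CPM in rich and 713 CPM in free anti-Gr-1 macrophages, and 1178 and 836 CPM in isotype control ones. By cells, it was found in 6 of 9 rich against 25.6% of free anti-Gr-1 macrophages. In isotype control ones it was found in 6 of 8 against 34.1%.

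Several of the genes most raised beside Mucl1 in anti-Gr-1 macrophages came from 1 cell. The 10 with the largest log2 ratio were Ccl5, Hes1, H2-M2, Tnf, Asgr2, Ptgs2, Marco, Slc9a4, Sirpb1c and Dusp2. Over 90% of the UMIs lay in 1 cell for 4 of these 10, among them all 50 UMIs of Hes1, a Notch target, and 73 of 76 UMIs of Tnf, an inflammatory cytokine. Slc9a4, encoding a sodium-proton exchanger, was the most widely shared, with 14 UMIs in 6 of 9 rich cells against 12.2% of free ones, a ratio of 7.02 (3.65 to 12.6). After isotype control it had 3 UMIs in 2 of 8 rich cells, a ratio of 2.95 (0.597 to 8.91). The 10 lowest were Ccl8, Ednrb, Folr2, Stab1, Lyve1, Igfbp4, Ccl12, Ccl7, Gas6 and Cx3cr1, of which 7 had no UMI in rich cells.

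Inflammatory and interferon genes did not move alike in the 2 libraries. Of 11 measured genes of the interleukin-1 and NF-κB list, 4 were higher and none lower in rich anti-Gr-1 macrophages. In isotype control ones 1 was higher and 2 lower. The 4 rested on few cells: Tnf had 73 of 76 UMIs in 1 cell, and the others had UMIs in 3, 5 and 7 of 9 rich cells. The chemokine gene Ccl3 had 1032 CPM in rich and 343 CPM in free anti-Gr-1 macrophages, and 102 and 303 CPM in isotype control ones. Its UMIs lay in 5 of 9 rich anti-Gr-1 and 3 of 8 rich isotype control macrophages. Of 5 measured interferon-induced genes, 4 were lower in rich anti-Gr-1 macrophages, against 1 of 5 in isotype control ones. Lysosome and dead-cell uptake genes were lower for 6 of 14 and 5 of 14 and higher for none. Cell cycle genes were lower for 1 of 5 and 2 of 4, and immediate early genes, which can respond to tissue digestion, were higher for 3 of 14 and 0 of 14.

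The remaining lists gave few or mixed calls in macrophages. Alternative activation genes were higher for 2 and lower for 3 of 7 in anti-Gr-1 cells, and 2 and 2 of 7 in isotype control cells. Among them Ear2, an eosinophil-associated ribonuclease gene, had ratios of 3.93 (3.20 to 4.77) and 2.42 (1.93 to 2.99), but 1 cell held 86 of its 113 UMIs in rich anti-Gr-1 macrophages and 47 of 86 in isotype control ones. Glucocorticoid-induced genes were higher for 3 and lower for 3 of 11, and 1 and 2 of 10. Lipid handling genes were higher for 2 and lower for 3 of 8, and none of 7 differed either way. Genes of secretory glands, such as Agr2 and Aqp5, reached the minimum for measurement in no gate for any of 18. Of the 24 listed mucins and mucin-like genes, which include Mucl1 itself, 2 others were measured in each macrophage gate, and neither differed 2-fold. Enzymes of mucin-type O-glycosylation, which add the sugars to mucins, were measured for 5 and 6 of 22, and none differed 2-fold.

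In type 2 dendritic-gated cells the rich cells differed from free ones in fewer genes. After isotype control 100 of 3045 genes (3.28%) were at least 2-fold higher and 103 (3.38%) lower, and after anti-Gr-1 216 of 2923 (7.39%) and 186 (6.36%). Cell cycle genes were lower for 4 of 6 in each library, with medians of -1.36 and -2.17 (-2.14 with genes at 0 at their limit), against 0.06 and 0.07 over all genes. Top2a, a topoisomerase of dividing cells, had 22.4 CPM in rich and 105.9 CPM in free isotype control cells, a ratio of 0.212 (0.085 to 0.437), and was at least 5.45-fold lower in the anti-Gr-1 library. Retnla had 44.8 and 500.4 CPM in rich and free isotype control cells and was at least 17.4-fold lower in rich anti-Gr-1 cells. Apod, encoding a lipid carrier, had ratios of 0.0489 (0.0244 to 0.0875) and 0.0127 (0.00032 to 0.0708), the second from 1 UMI.

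The genes furthest from equal in this gate were named from the anti-Gr-1 library. Of the 10 highest in the anti-Gr-1 library, 2 had their UMIs in 1 rich cell. The other 8 were AW112010, Asgr2, Cxcl2, Gbp2, Lyz1, H2-M2, Cxcl10 and F10, and the 10 lowest were Retnla, Gpr183, Apod, Hist1h2ap, Flt3, Top2a, Klrd1, Ccl3, Gpr171 and Cmtr1. Asgr2, an asialoglycoprotein receptor subunit that binds galactose-ended glycans, had 275.9 CPM in rich and 22.4 CPM in free anti-Gr-1 cells, from 3 of 9 rich cells, and 156.9 and 9.07 CPM in isotype control cells, from 6 of 23. Its ratios were 12.3 (8.71 to 17.0) and 17.3 (12.5 to 23.6). Il1rn, the interleukin-1 receptor antagonist gene, had ratios of 3.83 (2.95 to 4.91) and 2.82 (2.36 to 3.36). Cxcl2, a chemokine that draws neutrophils, had 3808 and 378 CPM in the anti-Gr-1 library but 253.0 and 520 CPM in the isotype control.

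Other lists of the type 2 dendritic gate gave calls in either direction. Genes of the interleukin-1 and NF-κB list were higher for 1 and lower for 4 of 12 after isotype control, and for 2 and 2 of 12 after anti-Gr-1. Lipid handling genes were higher for 3 and lower for 0 of 7, and for 0 and 1 of 6. Those 3 had UMIs in 1, 8 and 18 of 23 rich cells. Alternative activation genes were higher for 1 and lower for 2 of 5, and for 2 and 1 of 6. Glucocorticoid-induced genes were higher for 0 and lower for 1 of 10, and for 1 and 2 of 10. Lysosome and dead-cell uptake genes were higher for 1 and lower for 0 of 8, and for 1 and 1 of 8. Of 14 immediate early genes 0 and 1 were higher and none lower. Monocyte genes were higher for 3 and lower for 1 of 9 after isotype control, and for 1 and 0 of 5 after anti-Gr-1. Of the 3 after isotype control, 1 had its UMIs in 1 of 23 rich cells and 1 in 2 of 23. The third was Ccr2. Ccr2 had ratios of 2.09 (1.86 to 2.34) and 1.64 (1.34 to 1.99), with UMIs in 22 of 23 and 8 of 9 rich cells. Resident macrophage genes were higher for 2 and lower for 1 of 8, and for 1 and 1 of 6. Interferon-induced genes were higher for none and lower for 1 of 4, and for 2 and none of 6. Of the mucin-type O-glycosylation enzymes, 1 of 4 in the anti-Gr-1 library was higher, Galnt7 at a log2 of 1.02 from 10 UMIs.

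A few genes differed the same way in all 4 sets of rich cells, and they are named here after their values were seen. Of 2323 genes measured in all 4, 3 were at least 2-fold higher in each, Skint3, H2-M2 and Socs6. Another 6 were at least 2-fold lower in each, Pfkfb3, Stmn1, Trf, Gpr183, Dab2 and Lgals1. In isotype control macrophages H2-M2 rested on 4 UMIs in 2 of 8 rich cells. Its ratio there was 3.03, with an interval from 0.811 to 7.97 that includes no difference. Skint3, of a family of membrane proteins best known from skin and thymus epithelium, was found in 5 of 8 and 4 of 9 rich macrophages and in 20 of 23 and 7 of 9 rich type 2 dendritic cells. Among free cells it was found in 11.6%, 12.2%, 30.7% and 37.2%. Its ratios were 4.03 (1.82 to 7.81), 2.85 (1.20 to 5.85), 3.48 (2.69 to 4.44) and 3.10 (2.07 to 4.47) in the same order. Gpr183, the oxysterol receptor that guides dendritic cell migration, had 0 UMIs in both anti-Gr-1 sets and was there at least 3.29-fold and 11.6-fold lower. Its isotype control ratios were 0.11 (0.00277 to 0.613) and 0.0966 (0.0441 to 0.183).

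**Figure D5:**
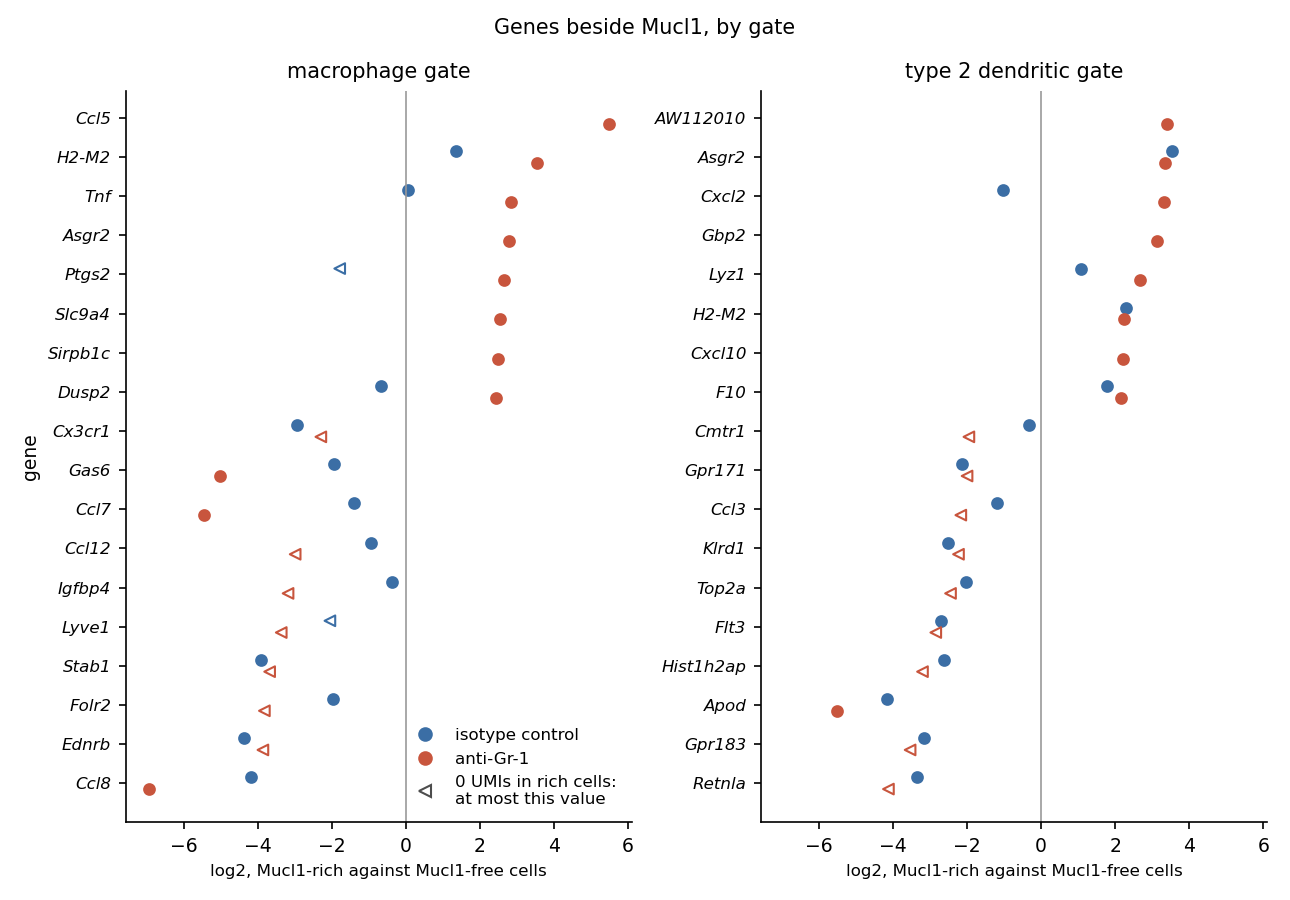
Log2 ratio of CPM plus 5 in Mucl1-rich against Mucl1-free cells, for those of the 10 highest genes of the anti-Gr-1 library found in more than 1 rich cell, and for the 10 lowest, in each gate, with isotype control in blue and anti-Gr-1 in red. Open triangles mark genes with no UMI in rich cells at their upper limit, and genes under 50 CPM in both sets or with too few counts for a limit are not drawn. In the macrophage gate Ccl8 lies at -6.94 and -4.18 in the 2 libraries, while Tnf lies at 2.84 and 0.06.

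Mucl1-rich cells included cells called male and cells called female in both libraries. A cell counted as female with Xist UMIs and none of 4 Y-linked genes, and as male with UMIs of the latter alone. Of the 37 rich isotype control cells 13 were female, 16 male, 2 both and 6 neither, and of the 19 anti-Gr-1 cells 4 were female, 10 male, 0 both and 5 neither. Both kinds of transcript were found in 1217 isotype control and 227 anti-Gr-1 kept cells, so a call can be wrong. In isotype control macrophages 5 rich cells were female, 1 male and 2 neither, with 200, 14 and 237 Mucl1 UMIs in all cells of those calls. In anti-Gr-1 macrophages 1 was female, 5 male and 3 neither, with 328, 1342 and 672 UMIs. Called males made up 369 of 983 and 189 of 333 cells of the gate, so the sexes were not in the same proportion in the 2 libraries. The macrophage ratio was 5.83 among cells called female and 129 among cells called male, where the isotype control held 14 UMIs. Why the ratio differed between the sexes was not tested. Without the richest macrophage of each library it was 14.9, and without the 5 richest 21.7.

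Markers of other skin cells were looked for in the rich cells, since CD45+ droplets can hold RNA of their neighbours. No cell of either library met the gland epithelium list of Krt8, Krt18, Krt19, Krt7, Aqp5 and Wfdc2. Rich macrophages had 0 UMIs of these 6 genes in both libraries, and rich type 2 dendritic cells had 1 and 0. Keratinocyte markers summed to 12.7 CPM in rich and 20.8 CPM in free isotype control macrophages, and to 20.4 and 22.0 CPM in anti-Gr-1 ones. In isotype control type 2 dendritic cells they summed to 686 CPM in rich and 19.9 CPM in free cells, from 5 of 23 cells. The 10 genes most raised beside Mucl1 in that set, Krt15, Dct, Ly6d, Ccl27a, Lgals7, Krt5, Fxyd3, Defb6, Perp and Krt14, each had over 90% of their UMIs in 1 cell. Endothelial markers summed to 245.6 CPM in rich and 118.8 CPM in free isotype control type 2 dendritic cells, from 17 of 23 rich cells. In anti-Gr-1 ones they summed to 240.9 and 118.4 CPM, from 6 of 9. Such UMIs were common in free cells of that gate too, in 1270 of 2523 and 668 of 1192. Only 12 isotype control and 8 anti-Gr-1 kept cells met the endothelial list. In macrophages endothelial markers summed to 12.7 and 28.7 CPM after isotype control and to 30.5 and 19.3 CPM after anti-Gr-1. Melanocyte and Schwann cell markers summed to 264.8 CPM in rich and 2.44 CPM in free isotype control type 2 dendritic cells, all from 1 of 23 rich cells. Fibroblast markers summed to 127.3 and 209 CPM in rich and free isotype control macrophages and to 61.1 and 194.6 CPM in anti-Gr-1 ones. Cells that met the fibroblast list numbered 343 after isotype control, with 199 Mucl1 UMIs and 2 rich cells, and 152 after anti-Gr-1, with 132 UMIs and 1 rich cell. The part of these other cell types' RNA in the Mucl1 levels was not tested.

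By likeness of pattern, no gene followed Mucl1 closely over cells. Levels were compared across 21 points, each a group of at least 50 cells in a library, not all of them single gates. The genes of 12180 with the highest Pearson correlation of log2 level were Diras2 (0.932), Dppa3 (0.906), Marco (0.902), Cd163 (0.899) and Slc13a3 (0.897). The points share libraries and depth. Of these, Cd163 had 586 CPM in macrophages after isotype control, against 692 CPM after anti-Gr-1, where Mucl1 had 65.3 and 652. Over the 333 anti-Gr-1 macrophages, Slc9a4 came first of 8541 genes at 0.342, with 0.070 in the isotype control. It was followed by Gbp2b (0.307), Plppr4 (0.306), Ccr2 (0.269), AI839979 (0.262), Atad5 (0.259), Plbd1 (0.254), Sirpb1c (0.247), Pianp (0.244) and Celf4 (0.243). In counts this sparse such values are weak, and they are given as a description.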

How the data were processed

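Single-cell RNA-sequencing libraries of CD45+ skin cells were analysed, 1 for each antibody. The authors deposited raw UMI counts for every gene and barcode. Cell Ranger 4.0.0 made them, per the file headers. The submitters' processing notes give mm10 as the build. The annotation release is not given in the sources used here. The deposited barcodes had at least 500 UMIs.

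A barcode passed with 200 or more genes, 500 or more UMIs and a mitochondrial share below 10%, which 19542 isotype control and 8047 anti-Gr-1 barcodes did. Each library was scored for doublets on its own by scrublet, run in scanpy 1.11.5 (Python 3.11.15). For the isotype control the automatic threshold would have called 32.8%, more than a limit of 25%, so the 3055 highest scores were taken out instead, a rate of 0.8% for each 1000 barcodes. After anti-Gr-1 the 473 called (5.88%) were taken out. Cells with markers of several lineages were set apart as mixed.

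Groups came from the treatment label. Each group is 1 library, so none was tested against the other. Intervals are exact at 95% (Clopper-Pearson, Poisson or conditional; scipy 1.17.1), and a count of 0 was limited at 3 counts. Genes were compared between rich and free cells with at least 50 UMIs in both sets together and 50 CPM in 1. Named were the 10 highest and 10 lowest in the anti-Gr-1 library and up to 4 members of each list with the largest change. Also named were the 5 genes most like Mucl1 over groups of cells and the 10 most like it over single cells. Mitochondrial, ribosomal, haemoglobin, immunoglobulin, receptor segment, sex-linked and unnamed genes were left out. Genes of the isotype control sets and other list members are named where a sentence turns on them, after their values were seen. Mucl1, the markers and the lists were chosen with earlier results of these data known. Sequences and exons are from GENCODE on GRCm38, and the pseudogene entry is from RefSeq on GRCm38.p6. Alternatives varied the cell filters, doublets, gates, thresholds, pseudocount, depth and the richest cells. The result for 1 of the genes so named is not reported here.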

Additional observations from a re-analysis of the deposited data

Results flagged for a closer look

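The ratio of the Mucl1 levels of the 2 libraries differed between gates and between parts of a gate, and antibody and pool of mice cannot be told apart. The anti-Gr-1 level was 9.98 times the isotype control level in macrophage-gated cells and 0.947 times in type 2 dendritic-gated cells. Within the macrophage gate it was 0.0626 times with a Lyve1 or Folr2 UMI, where 1 isotype control cell held 216 of 225 UMIs, and 23.6 times without either. Within the type 2 dendritic gate it was 0.111 times with a Flt3 UMI and 1.16 times without one. Both splits were chosen with the rich cells known. These differences were not tested, since each library is 1 sample.

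Mucl1 was also found in barcodes left out of the comparisons. Among 4824 removed isotype control barcodes 9 were rich, with up to 79 UMIs, and among 1536 removed anti-Gr-1 barcodes 7 were rich, with up to 283. Of the rich barcodes that passed the cell filters, 3 isotype control (7.5%) and 6 anti-Gr-1 ones (24%) had been called doublets, beside 15.6% and 5.88% of all barcodes that passed.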

How the results depend on the processing

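Of 66 alternative values, 40 stayed within the interval of the value reported, or, for counts of genes and sex calls, within 1.5 times it. The other 26 moved further. A reversal was looked for only in the macrophage ratio. The macrophage ratio of 9.98 stayed above 1 in each of its 12 alternatives, from 5.83 to 129. It was 12.6 with a gate of 1 more marker, 11.1 as a mean of CPM per cell (592 against 53.2), 14.9 without the richest cell of each library, 21.7 without the 5 richest, 5.83 in cells called female and 129 in cells called male, and the other 6 alternatives stayed within its interval. The share of cells with Mucl1 UMIs fell from 1.50% to 0.443%, 0.224% and 0.176% in the isotype control and from 1.51% to 0.436%, 0.251% and 0.238% in the anti-Gr-1 library with at least 2, 5 and 10 UMIs required, and to 0.446% and 0.378% with cells thinned to 1000 UMIs. With doublets kept, the type 2 dendritic level was 49.5 CPM instead of 43.5 after anti-Gr-1 and 44.5 instead of 46.0 after isotype control. The order of these 2 levels was thus reversed. Rich isotype control cells then held 87.3% of Mucl1 UMIs instead of 88.8%. Without the richest cell of each gate the macrophage, type 2 dendritic and ungated levels were 34.2, 39.8 and 33.8 CPM after isotype control and 511, 34.6 and 1.64 CPM after anti-Gr-1. Beside Mucl1 in isotype control macrophages, 616 genes were 2-fold higher and 639 lower when rich meant 10 UMIs. With a pseudocount of 20 CPM, 177 isotype control and 150 anti-Gr-1 genes were higher, instead of 334 and 274. Of these values 17 come from alternatives chosen after seeing the data: doublets kept for T cells and sex calls, rich macrophages and gate levels without the richest cell, and macrophages with a C1q UMI. No paired analysis was possible because each group has 1 library. At this depth Mucl1 in gates of few cells, such as anti-Gr-1 monocytes, could not be told from 0.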
